A study of Homo sapiens with 10 samples.

Results

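The genes described here are the numbered zinc finger genes of human chromosome 19 and their response to siRNAs that differ in their 6mer seed. Members are the protein-coding genes of chromosome 19 whose symbol is ZNF followed by a number and, at most, 1 letter, with a mean raw count of 10 or more over the 10 libraries. Of 246 annotated genes with such symbols, 207 met that minimum, and the 207 were among the 16905 genes tested. The 39 genes left out had mean counts of 0 to 9.9, and 5 of them had no count in any library. Closest to the limit, ZNF132 had a mean count of 9.9, ZNF471 9.5 and ZNF296 9.2, while ZNF625 was included at 10.2, ZNF564 at 10.6 and ZNF20 at 10.9. Symbol, position and mean count are what the rule uses, and it uses no comparison between groups, although the family was taken up with earlier results of these data known.

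RNA was sequenced from HeyA8, an established human ovarian cancer cell line, after reverse transfection with 10 nM of an siRNA in duplicate wells. The control siRNA siNT1 and siGGGGGC (siMxy in the sample labels) were each sampled at 24 h and 48 h, and siGGCAGU (si34a in the labels) at 48 h, which gives 5 groups of 2 libraries in 1 cell line. siGGGGGC and siGGCAGU are named for positions 2 to 7 of their guide strand. In both, the authors chemically modified the passenger strand, which pairs with the guide. Their sequences show the same modified first bases of that strand for siNT1, which the labels call siNT1 S2'OM. Duplicate wells show the spread of wells and libraries, and with n = 2 per group the p-values measure that spread alone. Library totals ran from 19781445 to 42428986 counts. RN7SL2 and SNORD3A, both small structural RNAs, took 19.8% to 32.0% of a library. Keratin genes KRT8 and KRT18 and the mesenchymal genes VIM, CDH2 and FN1 were at 1267 normalized counts or more in every library. The markers of leukocytes, T cells and hepatocytes PTPRC, CD3E and ALB did not pass 6.55. PECAM1, a further marker of other cells, reached 19.1. Among epithelial and ovarian markers, KRT19 ran from 8.93 to 45.3, WT1 from 36.2 to 109 and PAX8 from 87.0 to 909. The epithelial markers EPCAM and CDH1 were low, at no more than 40.6 and 19.3 normalized counts, and so was MUC16, the gene of the ovarian cancer antigen CA125, at no more than 31.0.

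Zinc finger proteins of the C2H2 type read DNA with arrays of short modules, each folded around a zinc ion by a pair of cysteines and a pair of histidines. Most of those encoded on chromosome 19 also carry a KRAB box, a domain at the N terminus that binds TRIM28 (KAP1). TRIM28 brings in SETDB1, which methylates histone H3, together with HP1 proteins (CBX1, CBX3 and CBX5) and histone deacetylases, and many KRAB zinc finger proteins use this machinery to silence retroelements. Their genes arose by repeated tandem duplication and lie in large clusters, and in most tissues their mRNAs are scarce. ZNF274 is known to bind the coding ends of zinc finger genes themselves and to recruit TRIM28 and SETDB1 there.

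A guide strand can act on other mRNAs as a microRNA does, by pairing of its seed with a short complementary word in a 3′ UTR. The word complementary to GGGGGC is GCCCCC, that for GGCAGU is ACTGCC and that for siNT1 is CGACTA, all written as in the sense strand of the gene, which alone was searched. Known microRNAs hold the same 6mers, as these mature sequences from RefSeq (GRCh38.p14) show, with bases 2 to 8 in capitals. The first is the microRNA whose seed siGGCAGU carries, and the second holds the siGGGGGC 6mer.
hsa-miR-34a-5p: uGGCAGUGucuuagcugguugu
hsa-miR-1237-5p: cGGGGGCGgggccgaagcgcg
The next 8 stretches are sites from 3′ UTRs of members that fell and are described further on, read from hg38 in the direction of the gene with the 6mer word in capitals. The coordinates are those of the 6mer, and its first base is counted from the start of the longest 3′ UTR in GENCODE.
ZNF587B GCCCCC, at chr19:57843082-57843087 on the plus strand, at base 506: tgcatcctccGCCCCCtaggctcaag
ZNF784 GCCCCC, chr19:55622544-55622549 on the minus strand, at base 82: tggtccctgaGCCCCCggagccaggt
ZNF784 GCCCCC, second copy, chr19:55622317-55622322 on the minus strand, at base 309: tgcgcgctctGCCCCCgcgccttcaa
ZNF324B GCCCCC, chr19:58457514-58457519 on the plus strand, at base 935: gccgatccccGCCCCCacccccaccc
ZNF8 GCCCCC, first of 4 copies, chr19:58296308-58296313 on the plus strand, at base 772: tacgtgaccaGCCCCCacgaaatttc
ZNF444 GCCCCC, first of 5 copies, chr19:56160240-56160245 on the plus strand, at base 39: ccttggtgctGCCCCCgggcggtacc
ZNF551 ACTGCC, chr19:57688479-57688484 on the plus strand, at base 191: gatttatgtcACTGCCaatttctgag
ZNF551 ACTGCC, second copy, chr19:57689064-57689069 on the plus strand, at base 776: caaagtaaagACTGCCaggctttgtg

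In this cell line the members were expressed at low levels. Their mean raw counts ran from 10.2 to 4759 with a median of 193, and per kb of exon their median level was 36.4 normalized counts against 62.3 for the 12430 protein-coding genes tested. Normalized counts are raw counts scaled to the TMM library size, the library total corrected for composition. A translated search found a clear KRAB box in 181 members and none in 26. The number of finger motifs per protein ran from 1 to 32 with a median of 13. Their longest annotated 3′ UTRs had a median length of 2306 bases and a median GC content of 40.4%, against 1885 bases and 42.9% for protein-coding genes.

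The highest levels per kb belonged to ZNF146 at 901 normalized counts per kb and to ZNF121 at 654. ZNF146 encodes a protein made of little but fingers. ZNF428 at 235, ZNF329 at 199 and ZNF480 at 188 followed. Of these 5 genes, ZNF480 alone had a clear KRAB box. ZNF146 had 3803 and 4046 normalized counts with siNT1 at 48 h, 3607 and 3883 with siGGCAGU and 3722 and 3585 with siGGGGGC. The log2 fold changes at 48 h were -0.067 ± 0.082 and -0.10 ± 0.082 (SE), with neither past the test (adjusted p = 0.519 and 0.302). At 24 h with siGGGGGC, where the libraries had 3242 and 3216 against 4122 and 4109.7, it fell by 0.35 on the log2 scale (adjusted p = 0.00803). By edgeR's quasi-likelihood test with Benjamini-Hochberg adjustment over all genes tested, which gave this and every adjusted p here, that fall passed.

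As a group the members stood higher in the 4 libraries that had received siGGGGGC or siGGCAGU for 48 h than in the other 6. Their summed normalized counts were 51342 and 54192 with siNT1 at 48 h, 78083 and 72879 with siGGCAGU and 75961 and 74716 with siGGGGGC. At 24 h the sums were 53529 and 55096 with siNT1 and 54300 and 55617 with siGGGGGC, where the groups overlapped. At 48 h the groups with siGGGGGC and siGGCAGU did not overlap siNT1. With RN7SL2 and SNORD3A taken out of the totals, the members' summed CPM was 2739 to 2950 in the 6 libraries without a 48 h seed treatment and 3950 to 4140 in the 4 with one. The plot of members by library shows the same on a scale where every gene weighs equally.

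**Figure D1:**
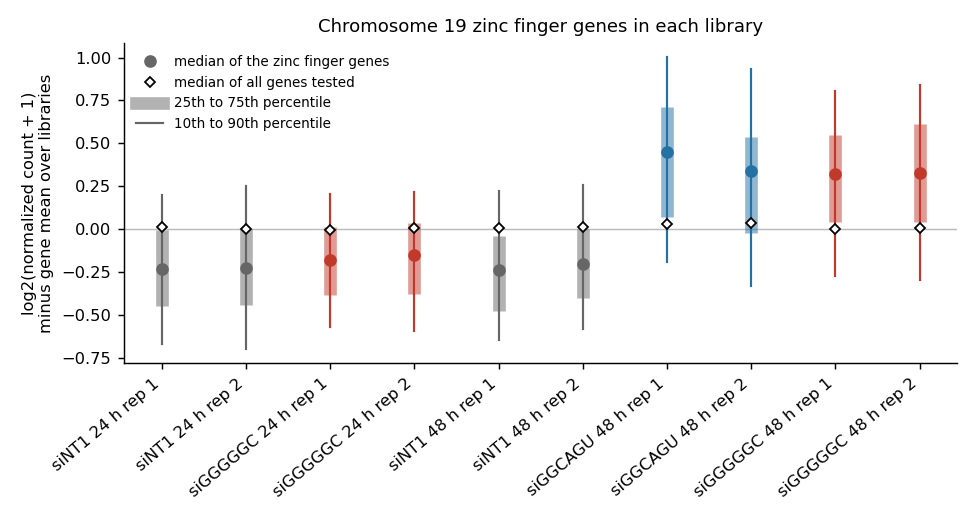
Level of the 207 zinc finger genes in each of the 10 libraries, as log2(normalized count + 1) minus the gene's own mean over the libraries. Filled circles are medians over the genes, thick and thin bars span the 25th to 75th and 10th to 90th percentiles, and diamonds are medians of all genes tested. The medians lie between -0.24 and -0.15 in the first 6 libraries and between 0.32 and 0.45 in the 4 libraries with siGGCAGU or siGGGGGC at 48 h, while the medians of all genes lie between -0.0018 and 0.033.

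The first comparison asked what siGGGGGC does against siNT1 after 48 h. Zinc finger genes of chromosome 19 mostly rose. In all, 124 members rose and 23 fell at an adjusted p below 0.05, and 60 did not pass. Over all 16905 genes tested, 27.8% rose and 27.5% fell. Beyond a log2 fold change of 1, 47 members were higher and 5 lower, against 10.5% and 11.0% of all genes. The median log2 fold change of the members was 0.54, with an interquartile range of 0.10 to 0.96, and that of all genes was -0.011. Both siGGGGGC libraries lay above both siNT1 libraries for 146 members and below for 40, against 38.1% and 39.3% of all genes. In bulk RNA, a change in RNA per cell and a change in which cells are left cannot be told apart. Whether reads were counted by strand is not stated, and 82 members share 5% or more of their exon bases with another gene. The 125 members below that limit gave 83 higher and 10 lower with a median of 0.55. Scaling by library totals in place of TMM moved the median of all genes from -0.011 to -0.17, left 93 members higher and 28 lower with a median of 0.38, and moved the share of higher calls among all genes called from 50.3% to 37.7%. Without siNT1 replicate 2 or without siGGGGGC replicate 2 the members that fell were 15.

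ZNF699 had the largest rise of all members. Its control libraries lay on both sides of the mean of 50 demanded of named genes, which it met through the treated libraries. Its normalized counts were 55.0 and 44.1 with siNT1 and 374 and 398 with siGGGGGC at 48 h, a log2 fold change of 2.97 ± 0.16 (SE, adjusted p = 1.33e-09). ZNF160, reported as a repressor of the innate receptor gene TLR4, went from 282 and 308 to 1501 and 1361, a change of 2.28 ± 0.10 (SE, adjusted p = 1.04e-10). Both genes encode KRAB proteins, and in both the lowest treated library was more than 4-fold above the highest control library. The next rises among members with a mean of 50 or more normalized counts were ZNF816 at 1.71 ± 0.18, ZNF420 at 1.69 ± 0.12, ZNF226 at 1.61 ± 0.10 and ZNF211 at 1.61 ± 0.14 on the log2 scale (SE). All of these 6 genes carry a clear KRAB box and have no GCCCCC in the 3′ UTR. Among all 207 members, 181 carry such a box, and 19.4% of those with an annotated 3′ UTR hold GCCCCC. In ZNF226 the libraries had 426 and 503 with siNT1 and 1377 and 1474 with siGGGGGC.

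Among members at that level, the falls were led by ZNF587B, with 647 and 712 normalized counts with siNT1 and 228 and 222 with siGGGGGC, a log2 fold change of -1.60 ± 0.10 (SE, adjusted p = 5.48e-09). Its exons share 10.9% of their bases with other genes on the same strand, among them ZNF586. ZNF552 went from 213 and 272 to 88.3 and 97.3, a change of -1.39 ± 0.16 (SE, adjusted p = 3.09e-06). ZNF784, which lacks a clear KRAB box, went from 101 and 105 to 45.8 and 36.2, a change of -1.33 ± 0.20 (SE, adjusted p = 3.34e-05). In these 3 genes every siGGGGGC library was below every siNT1 library by 2-fold or more. Smaller falls were those of ZNF324B at -0.83 ± 0.19, ZNF787 at -0.78 ± 0.15 and ZNF8 at -0.72 ± 0.14 on the log2 scale (SE). ZNF8 shares 20.7% of its exon bases with a readthrough gene and another gene of the same strand. These 6 genes lie in the last cluster of the long arm, from ZNF628 to ZNF446, and all but ZNF552 hold GCCCCC in the 3′ UTR. A clear KRAB box is present in 4 of the 6. These are descriptions of the genes named and not of all falls. The demand on the mean also counts the treated libraries and so leaves out scarce genes that fell. Of all 23 members that fell, 11 lie in that cluster, which holds 51 of the 207 members, and 8 hold GCCCCC in the 3′ UTR. The other 2 of the 5 members lower beyond a log2 fold change of 1 were below that level. ZNF726 changed by -1.67 ± 0.27 (SE, adjusted p = 7.51e-05) with 63.5 and 67.0 normalized counts in the control and 22.4 and 18.6 in the siGGGGGC libraries, and ZNF358 by -1.38 ± 0.46 with 17.0 and 14.3 against 6.71 and 5.18. Neither lies in that cluster or holds GCCCCC in the 3′ UTR, and both were named after their values were seen.

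**Figure D2:**
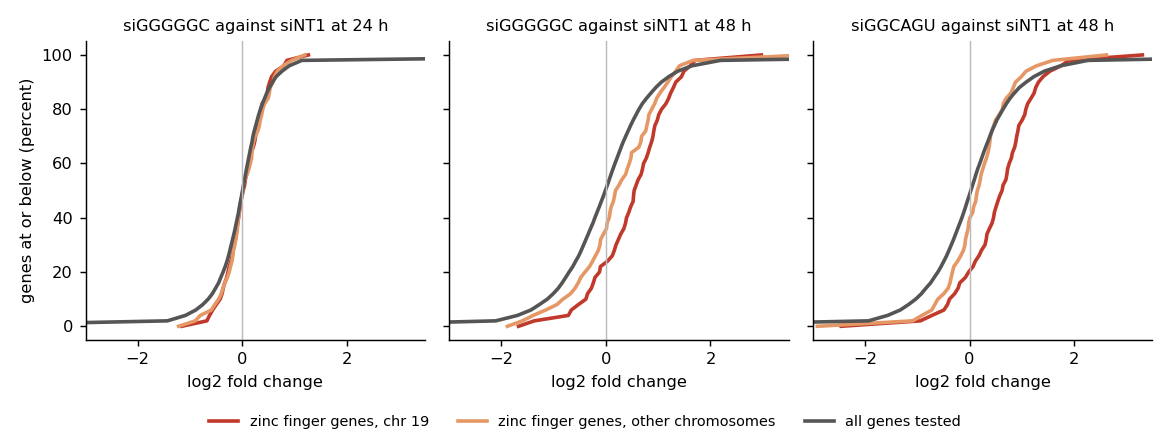
Cumulative distributions of log2 fold change (horizontal axis) over the 207 zinc finger genes of chromosome 19, the 215 zinc finger genes of other chromosomes and all 16905 genes tested, with the percent of genes at or below each value on the vertical axis. At 24 h the curves lie together, with medians of 0.017, 0.0091 and 0.0038. At 48 h the curve of chromosome 19 is shifted to the right, with medians of 0.54, 0.18 and -0.011 for siGGGGGC and 0.62, 0.15 and 0.024 for siGGCAGU.

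siGGCAGU, the siRNA with the miR-34a-5p seed, was compared with the same siNT1 libraries at 48 h, so the control is common to both comparisons. With siGGCAGU 133 members rose, 20 fell and 54 did not pass, against 27.8% of all genes that rose and 24.9% that fell. Beyond a log2 fold change of 1 there were 50 higher and 1 lower (10.7% and 9.62% of all genes). The median over members was 0.62, with an interquartile range of 0.15 to 0.97. For 152 members both siGGCAGU libraries were above both siNT1 libraries, and for 29 both were below, against 37.7% and 35.0% of all genes. Under library totals 107 rose and 26 fell with a median of 0.47, while the median of all genes moved from 0.024 to -0.13 and the share of higher calls among all genes called from 52.8% to 40.6%. Without siGGCAGU replicate 2 the members that fell were 13.

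ZNF699 was again the gene with the largest rise, at 547 and 433 normalized counts, a log2 fold change of 3.31 ± 0.16 (SE, adjusted p = 3.06e-10). ZNF583 had 154 and 142 with siNT1, 655 and 537 with siGGCAGU and 155 and 134 with siGGGGGC. It rose with siGGCAGU by 2.00 ± 0.14 (SE, adjusted p = 1.72e-08), and its siGGGGGC libraries lay on both sides of the siNT1 libraries. ZNF790 went from 175 and 183 to 684 and 652 with siGGCAGU, a change of 1.89 ± 0.11 (SE, adjusted p = 1.14e-09), and to 299.5 and 294 with siGGGGGC. The other leading rises were ZNF836 at 1.96 ± 0.25, ZNF816 at 1.91 ± 0.18 and ZNF528 at 1.89 ± 0.23 on the log2 scale (SE). ZNF836 had 24.8 and 26.9 normalized counts in the control libraries and 123 and 84.0 with siGGCAGU, and ZNF528 had 32.5 and 40.7 and then 161 and 119, so both were scarce in the control and reached the demanded mean only through the siGGCAGU libraries. ZNF699 likewise reached the demanded mean only through those libraries. All 6 genes named have a clear KRAB box, as do 181 of the 207 members.

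Of the 6 leading falls with siGGCAGU under the same demand on the mean, ZNF724, ZNF100, ZNF714 and ZNF430 lie in the cluster from ZNF101 to ZNF254 next to the centromere. ZNF100 had 335 and 359 normalized counts with siNT1 and 196 and 162 with siGGCAGU, a log2 fold change of -0.97 ± 0.12 (SE, adjusted p = 5.63e-06). ZNF714, the most abundant of them, went from 953 and 1045 to 539 and 560.1, a change of -0.86 ± 0.10 (SE, adjusted p = 1.91e-06). In both genes the groups were well apart. ZNF724 changed by -0.999 ± 0.16, but 44.7% of its exon bases are shared with another annotated gene on the same strand, so its reads cannot be assigned to it with certainty. The other falls were ZNF430 at -0.73 ± 0.11, ZNF114 at -0.95 ± 0.15 and ZNF551 at -0.90 ± 0.12 (SE). Of the 6, ZNF551 alone holds ACTGCC in the 3′ UTR, in the pair of sites printed above. A clear KRAB box is present in 5 of the 6. ZNF726 had 63.5 and 67.0 normalized counts with siNT1 and 10.5 and 12.6 with siGGCAGU, a change of -2.46 ± 0.29 (SE, adjusted p = 3.69e-06), and was the 1 member lower beyond a log2 fold change of 1.

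The clusters along the chromosome are described here in turn, with no test between them. Genes were placed in 1 cluster as long as neighboring starts of annotated zinc finger genes were no more than 1 Mb apart. This gave 16 clusters, of which 15 held members and 7 held 10 or more, with 189 of the 207 members in those 7. The cluster at 11.5 to 12.6 Mb, ZNF653 to ZNF791, had 21 members with a median log2 fold change of 0.93 with siGGGGGC and 0.73 with siGGCAGU, and 13 and 15 of them rose. The cluster at 43.5 to 45.1 Mb had 23 members with medians of 0.87 and 0.73 (19 and 16 rose). The cluster at 36.2 to 37.8 Mb had 24 with 0.71 and 0.77 (16 and 19 rose), and the cluster at 7.1 to 9.8 Mb had 13 with 0.66 and 0.62 (9 rose in each). In each of these 4 clusters no more than 1 member fell with either siRNA. A small cluster of 5 members at 34.7 to 35.0 Mb, ZNF302 to ZNF792, had medians of 1.04 and 1.29, with 4 higher in each and 1 lower with siGGGGGC.

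At 51.6 to 53.6 Mb, from ZNF175 to ZNF331, the 36 members all have a clear KRAB box. With siGGGGGC 23 rose and 0 fell (median 0.55), and with siGGCAGU 31 rose and 2 fell (median 0.78). The largest cluster, 51 members at 55.5 to 58.5 Mb, had 26 higher and 11 lower with siGGGGGC (median 0.38) and 29 higher and 7 lower with siGGCAGU (median 0.51). Split at gaps over 500 kb, it fell into 12 members from ZNF628 to ZNF835 with 3 higher and 4 lower with siGGGGGC (median -0.39) and 39 members with a median of 0.53. The cluster at 19.7 to 24.1 Mb held 21 members with 10 higher and 4 lower with siGGGGGC (median 0.34). With siGGCAGU the same 21 members gave 6 higher and 6 lower, 28.6% each way and so close to the 27.8% and 24.9% of all genes, and a median of -0.22. Compared directly at 48 h, 12 of them were higher with siGGGGGC than with siGGCAGU and 1 was lower, with a median difference of 0.50 on the log2 scale. Of the 21, 20 have a clear KRAB box.

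**Figure D3:**
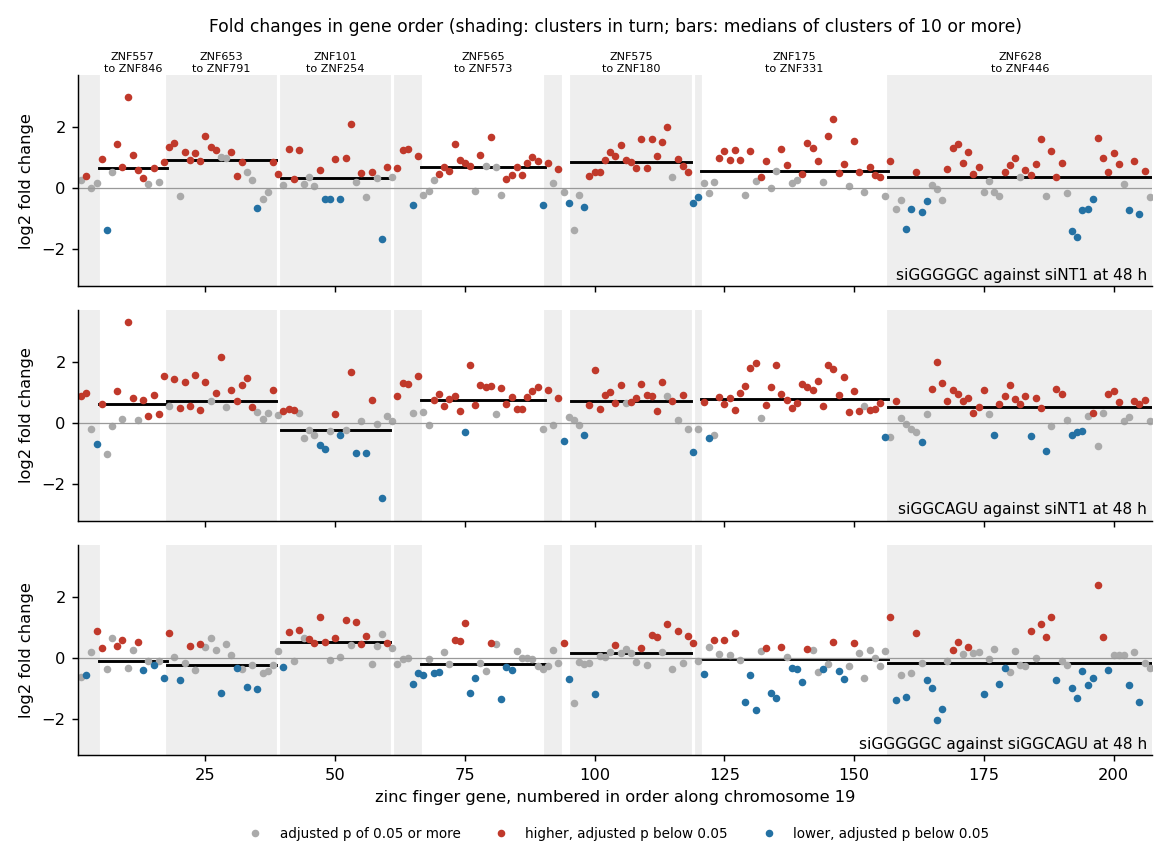
Log2 fold change of each of the 207 zinc finger genes, numbered in their order along chromosome 19, in the 3 comparisons at 48 h. Shaded and unshaded stretches are successive clusters, horizontal bars are the medians of clusters with 10 or more members (named above the first panel by their first and last member), and colors mark genes with an adjusted p below 0.05. The cluster from ZNF101 to ZNF254 has medians of 0.34, -0.22 and 0.50 in the 3 panels.

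The direct comparison of siGGGGGC with siGGCAGU at 48 h asked where their effects on these genes differ. In this comparison 52 members were higher with siGGGGGC, 52 were lower and 103 did not pass, against 26.7% and 27.6% of all genes. Beyond a log2 fold change of 1 there were 9 higher and 17 lower (10.1% and 12.8% of all genes). Both siGGGGGC libraries lay above both siGGCAGU libraries for 79 members and below for 90, against 37.7% and 38.0% of all genes. The median over members was -0.036 on the log2 scale, and 0.048 without siGGCAGU replicate 1. Without siGGCAGU replicate 2, 33 members were higher. Among members at the level given above, the largest excess with siGGCAGU was that of ZNF583, whose values are given above, at -2.04 ± 0.15 (SE, adjusted p = 2.34e-08) for siGGGGGC relative to siGGCAGU. ZNF836 at -1.72 ± 0.26 and ZNF470 at -1.67 ± 0.18 followed (SE). In this comparison too, ZNF836 reached the demanded mean only through the siGGCAGU libraries, where it is high. ZNF470 had 102 and 98.5 normalized counts with siNT1, 212 and 276 with siGGCAGU and 78.2 and 76.6 with siGGGGGC. On the other side stood ZNF430 at 1.35 ± 0.11 (SE, adjusted p = 8.02e-08), ZNF493 at 1.22 ± 0.21 and ZNF100 at 1.18 ± 0.12. All 3 lie in the cluster from ZNF101 to ZNF254. For ZNF430 the libraries had 300.5 and 321 with siNT1, 191 and 184 with siGGCAGU and 475 and 477 with siGGGGGC, so that it was below the control with one siRNA and above it with the other, both past the test (adjusted p = 5e-05 and 0.000134).

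**Figure D4:**
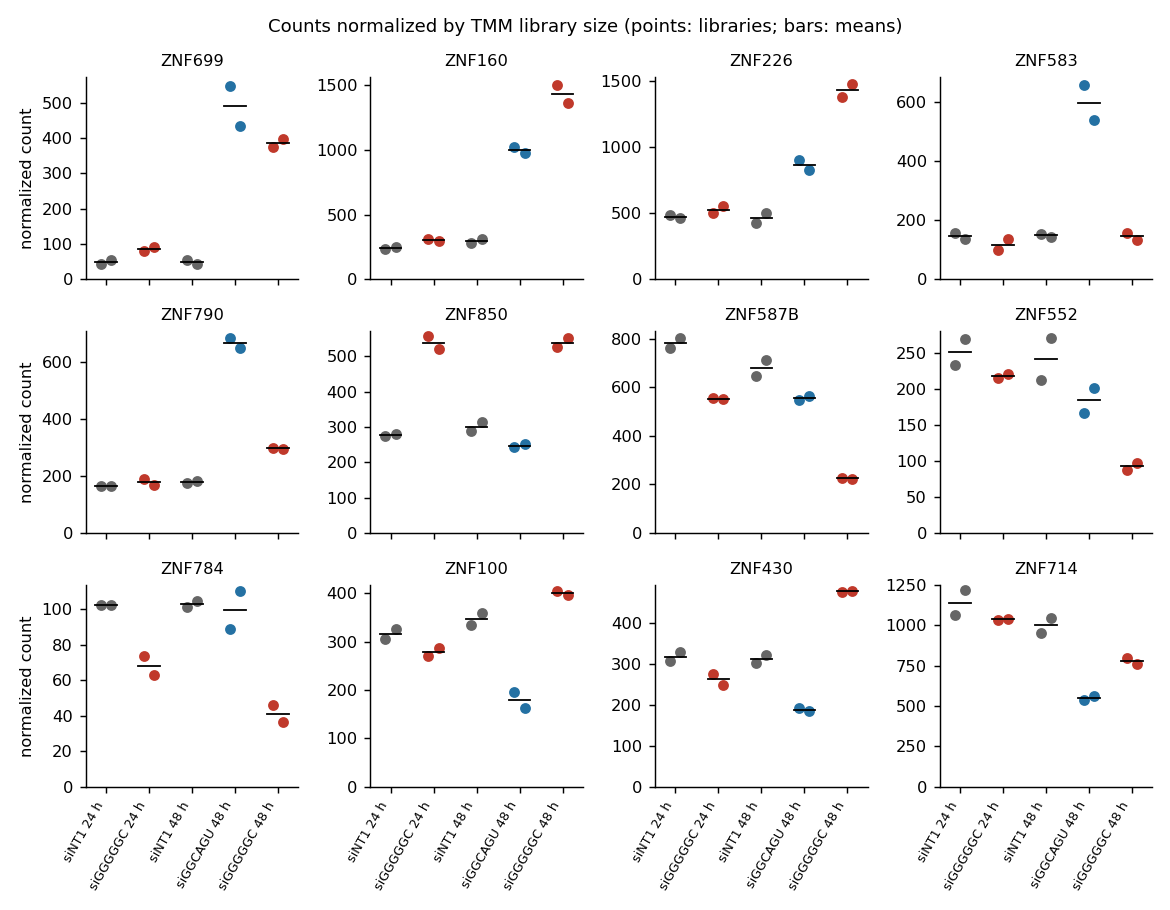
Normalized counts of 12 zinc finger genes in each of the 10 libraries, with 2 points per group and a bar at their mean. Each panel has its own linear axis from 0. ZNF699 and ZNF160 are high with both seeds at 48 h, ZNF583 with siGGCAGU alone, ZNF850 with siGGGGGC at both times, and ZNF587B and ZNF552 are lowest with siGGGGGC at 48 h.

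Members with and without a KRAB box were set side by side. For all genes tested the shares at 48 h were 27.8% higher and 27.5% lower with siGGGGGC, and 27.8% and 24.9% with siGGCAGU. Of the 181 with a clear KRAB box, 118 rose and 14 fell with siGGGGGC at 48 h (median 0.62), and 127 rose and 16 fell with siGGCAGU (median 0.70). Of the 26 without one, 6 rose and 9 fell with siGGGGGC (median -0.25), not far from the shares of all genes. With siGGCAGU 6 of these 26 rose and 4 fell (median 0.011). ZNF329 and ZNF134 are among the latter that rose with both, ZNF329 by 1.15 ± 0.12 and 1.06 ± 0.12 and ZNF134 by 0.80 ± 0.089 and 0.81 ± 0.088 (SE, siGGGGGC first). ZNF134 was picked after its values were seen. Numbered zinc finger genes of other chromosomes were counted in the same way. Of their 96 genes with a KRAB box, 48 rose and 12 fell with siGGGGGC (median 0.44) and 37 rose and 11 fell with siGGCAGU (median 0.23). Of their 119 without one, 44 rose and 25 fell (median 0.13) and 34 rose and 20 fell (median 0.12). The other 666 protein-coding genes of chromosome 19 had medians of -0.041 and -0.031, with 187 higher and 209 lower for siGGGGGC and 165 higher and 182 lower for siGGCAGU.

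By the number of fingers, members with under 10 had the lowest median with both siRNAs, a difference that was not tested. With siGGGGGC at 48 h the median was 0.38 for 53 members with under 10 fingers, 0.61 for 73 with 10 to 13 and 0.57 for 81 with 14 or more. With siGGCAGU these medians were 0.54, 0.64 and 0.70. Base composition of the 3′ UTR moved with the result. With a GC content under 40% (96 members) the medians were 0.67 for siGGGGGC and 0.65 for siGGCAGU, and at 45% or more (43 members) they were 0.32 and 0.33. Among protein-coding genes that are not numbered zinc finger genes, those with a GC content under 40% had medians of 0.086 and 0.062, and those at 45% or more -0.11 and -0.012. The part of GC content in the members' change was not tested. The level of the members showed no such order. Medians for siGGGGGC were 0.82, 0.48 and 0.64 for mean counts under 50, from 50 to 300 and of 300 or more. These means and the minimum for members include the treated libraries, so the lowest bin favors scarce genes that rose over those that fell. Its median therefore cannot be read as an effect of level.

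The seed words were then counted in the members' 3′ UTRs. GCCCCC is present in the longest 3′ UTR of 40 of the 206 members that have one annotated, 19.4%, against 35.9% of protein-coding genes tested. ACTGCC is present in 65, or 31.6%, against 41.3%, and CGACTA, the word for siNT1, in 6, or 2.91%, against 4.70%. With siGGGGGC at 48 h, the 40 members with GCCCCC gave 18 higher and 8 lower (median 0.28), and the 166 without it gave 105 higher and 15 lower (median 0.56). Over all protein-coding genes tested the medians were -0.14 with GCCCCC and 0.082 without it. In the coding sequence 25 members hold GCCCCC, of which 8 rose and 8 fell (median -0.26), while 116 of the other 182 rose and 15 fell (median 0.60). With siGGCAGU, the 65 members with ACTGCC had 40 higher and 6 lower and the 141 without it 93 higher and 14 lower, with a median of 0.62 in both. Over all protein-coding genes these medians were -0.044 and 0.084. Where the shortest annotated 3′ UTR was searched in its place, 13 members held GCCCCC and had a median of -0.43, and 19 held ACTGCC and had a median of 0.20. ZNF175, which encodes a repressor of the HIV promoter, has 3 copies of GCCCCC and 1 of ACTGCC. Its libraries had 209 and 216 normalized counts with siNT1, 228 and 247 with siGGGGGC and 386 and 311 with siGGCAGU. The change was 0.16 ± 0.14 (SE, adjusted p = 0.353) with the former and 0.70 ± 0.14 (SE, adjusted p = 0.000497) with the latter.

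After 24 h of siGGGGGC few members had changed. In that comparison 21 rose and 10 fell, against 10.6% and 8.31% of all genes, so that the share of members that rose was close to the share of all genes and the share that fell was below it. No member changed beyond a log2 fold change of 1 at an adjusted p below 0.05, where 1.56% of all genes were higher and 2.17% lower. Both siGGGGGC libraries were above both siNT1 libraries for 69 members and below for 59, against 32.0% and 30.7% of all genes. The median was 0.017, and -0.077 under library totals, where the median of all genes was -0.090 and 6 members rose and 10 fell. The counts rested on single libraries. They were 4 higher and 3 lower without siNT1 replicate 1 and 11 and 3 without siNT1 replicate 2. Without siGGGGGC replicate 1 they were 12 and 5, and without siGGGGGC replicate 2 they were 5 and 3. Leaving out either siGGGGGC library of 48 h gave 6 lower. ZNF850 rose most, with 274 and 280.2 normalized counts with siNT1 and 556 and 521 with siGGGGGC, a log2 fold change of 0.96 ± 0.11 (SE, adjusted p = 2.36e-05). At 48 h it had 526 and 551 with siGGGGGC against 289 and 313 with siNT1, a rise of 0.84 ± 0.10, and with siGGCAGU it fell, with a change of -0.28 ± 0.11 (adjusted p = 0.0334). ZNF699 at 0.86 ± 0.23, ZNF581 at 0.83 ± 0.14, ZNF547 at 0.82 ± 0.25, ZNF805 at 0.79 ± 0.18 and ZNF627 at 0.63 ± 0.15 rose less (SE). ZNF581 shares 24.9% of its exon bases with neighboring genes.

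The falls at 24 h were led by ZNF30 at -0.71 ± 0.22, ZNF600 at -0.68 ± 0.15 and ZNF473 at -0.65 ± 0.12, followed by ZNF486 at -0.62 ± 0.20, ZNF444 at -0.54 ± 0.17 and ZNF787 at -0.50 ± 0.16 (SE). ZNF473 encodes ZFP100, a factor of the U7 snRNP pathway that forms the ends of histone mRNAs. It had 323 and 317 normalized counts with siNT1 and 195 and 212 with siGGGGGC, and its groups did not overlap (adjusted p = 0.00129). ZNF600 fell at 24 h, from 147 and 145 to 92.4 and 90.1, and rose at 48 h, from 125 and 135 to 172 and 185 (adjusted p = 0.00596 and 0.00723). Of the 12 genes named at 24 h, ZNF473, ZNF850 and ZNF581 kept an adjusted p below 0.05 in every alternative run, including those that left out 1 library, and the other 9 did not.

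The change of the siGGGGGC effect between 24 h and 48 h was tested as an interaction, in which the siNT1 libraries of the same time serve as reference. For 75 members the effect was higher at 48 h than at 24 h and for 6 it was lower, against 13.4% and 15.2% of all genes. Beyond a difference of 1 there were 31 higher and 3 lower (4.84% and 6.38% of all genes). The median difference was 0.51 on the log2 scale. ZNF699 gained 2.12 ± 0.29 (SE, adjusted p = 7.33e-05), ZNF160 1.94 ± 0.15 and ZNF461 1.80 ± 0.20 between the times. In ZNF461 the libraries had 205 and 207 with siNT1 and 160.2 and 166 with siGGGGGC at 24 h, then 133 and 182 and 435 and 440.1 at 48 h. Its 24 h values were below the control without passing the test (adjusted p = 0.151), and its 48 h values were far above (adjusted p = 2.62e-07). ZNF552 at -1.19 ± 0.23, ZNF587B at -1.10 ± 0.14 and ZNF726 at -1.03 ± 0.37 lost most. The members with a lower effect were 3 without siNT1 replicate 1 at 24 h or siGGGGGC replicate 1 at 48 h, and 10 without either siGGCAGU library. Of the 21 members that rose at 24 h, 20 also rose at 48 h and 0 fell. Of the 10 that fell at 24 h, 6 fell and 1 rose at 48 h. Among all 207 members 59.9% rose and 11.1% fell at 48 h, and this overlap was not counted over all genes. Whether it is particular to the members is therefore not shown. The effects at 24 h and 48 h rest on different libraries. Over the 207 members they had a Pearson r of 0.53 and a Spearman rho of 0.52, where over all genes tested these were 0.39 and 0.42. These are descriptions over genes that share their libraries, with no test.

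**Figure D5:**
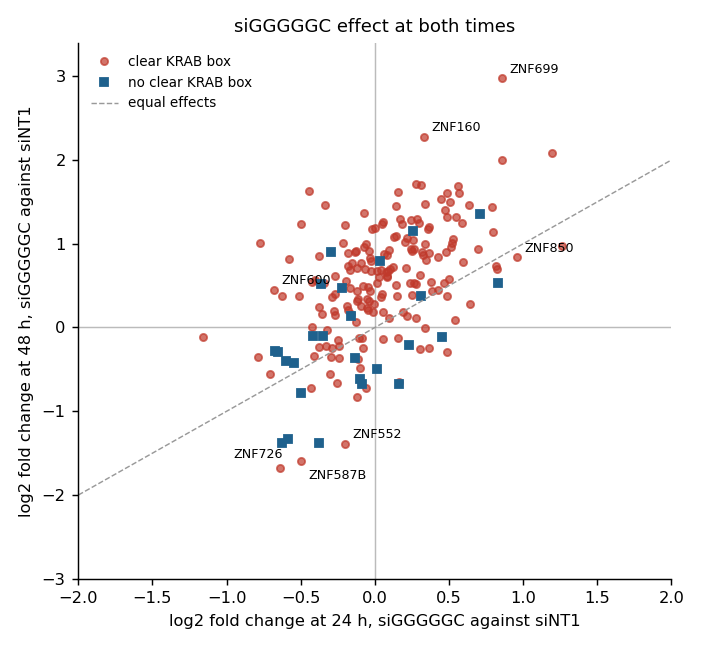
Log2 fold change with siGGGGGC against siNT1 at 24 h (horizontal) and at 48 h (vertical) for the 207 zinc finger genes, with circles for genes with a clear KRAB box and squares for those without. The dashed line marks equal effects at both times. Most points lie above it, ZNF699 at 0.86 and 2.97, ZNF160 at 0.33 and 2.28, while ZNF587B lies below it at -0.50 and -1.60.

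Under siNT1 few members changed between 24 h and 48 h. There were 8 higher and 3 lower at 48 h, against 9.37% and 7.19% of all genes, with a median of 0.0036. Under library totals 23 were higher and 0 lower, where the median of all genes was 0.23. ZNF574 and ZNF91 rose, by 0.80 ± 0.15 and 0.80 ± 0.21, and ZNF614 and ZNF329 fell, with changes of -0.48 ± 0.12 and -0.40 ± 0.12 (SE). None of these 4 calls held in every alternative run. Without siNT1 replicate 1 at 24 h, 2 members were higher and 0 lower. Without siNT1 replicate 2 at 24 h, these counts were 1 and 0, and without siNT1 replicate 1 at 48 h they were 2 and 0. The members that fell were 10 without either siGGCAGU library and 1 without any one siGGGGGC library, although those libraries enter this comparison only through the estimate of spread and the filter.

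Several members have known targets or partners. ZNF91, a repressor of SVA retroelements, had 139 and 133 normalized counts with siNT1 at 48 h, 192 and 204 with siGGGGGC and 204 and 254 with siGGCAGU. It rose with both, by 0.54 ± 0.18 (SE, adjusted p = 0.0213) and 0.76 ± 0.18 (SE, adjusted p = 0.00222). ZNF93, which acts on L1 elements, was scarce, at 20.1 and 22.3 in the control libraries, and its changes of 0.15 ± 0.36 and -0.49 ± 0.38 did not pass the test. ZNF274 had 611 and 673 with siNT1, 1079.7 and 1142 with siGGGGGC and 1012 and 1067 with siGGCAGU. Both treated groups were above the control, and ZNF274 rose by 0.79 ± 0.11 (SE, adjusted p = 1.33e-05) and 0.69 ± 0.11 (SE, adjusted p = 4.84e-05). ZNF350 (ZBRK1), a partner of BRCA1, rose by 1.22 ± 0.12 and 0.64 ± 0.12. ZNF224, which represses the aldolase A gene, rose by 0.67 ± 0.13 and 0.81 ± 0.13, although 42.4% of its exon bases are shared with other genes.

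ZNF382 rose with both as well, by 0.55 ± 0.15 and 0.77 ± 0.14 (SE, siGGGGGC first). ZNF154, a gene often methylated in tumors, had 15.5 and 18.3 normalized counts with siNT1, 36.9 and 43.5 with siGGGGGC and 20.9 and 12.6 with siGGCAGU. It rose with siGGGGGC, by 1.23 ± 0.29 (SE, adjusted p = 0.00227), and with siGGCAGU its libraries lay on both sides of the control. ZNF331, an imprinted gene, fell with siGGCAGU, with a change of -0.47 ± 0.17 (SE, adjusted p = 0.0318), and its change of -0.24 ± 0.17 with siGGGGGC did not pass. ZNF649 changed by 0.19 ± 0.19 and -0.39 ± 0.19, neither of which passed. Of the 11 members on the list of known targets and partners, which also held ZNF10 of another chromosome, 5 rose with both seeds at 48 h. Among all members 59.9% rose with siGGGGGC and 64.3% with siGGCAGU, against 27.8% of all genes in each comparison. The siNT1 libraries are common to both comparisons, so the 2 rises of a gene are not independent. The share of all genes that rose with both was not counted.

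Genes of the proteins that KRAB zinc fingers work with were counted against siNT1 in the same way. The list of 41 genes for TRIM28, the enzymes and chromatin proteins it gathers and the factors that modify it had 40 members tested. With siGGGGGC at 48 h 8 rose and 16 fell (median -0.24), which is 20% and 40% of them against 27.8% and 27.5% of all genes. With siGGCAGU 5 rose and 18 fell (median -0.25), 12.5% and 45.0% against 27.8% and 24.9%. With siGGGGGC at 24 h 4 rose and 2 fell (median 0.077), 10.0% and 5.0% against 10.6% and 8.31%. In the siNT1 control itself 11 were higher and 2 lower at 48 h than at 24 h (median 0.12), 27.5% and 5.0% against 9.37% and 7.19% of all genes, so the control of the 48 h comparisons was not at its 24 h level. TRIM28 itself had 3526 and 2835 normalized counts with siNT1 at 48 h, 1684 and 1844 with siGGGGGC and 1337 and 1321 with siGGCAGU. Its siRNA groups did not overlap the control, and it fell with both, with changes of -0.85 ± 0.10 (SE, adjusted p = 3.66e-06) and -1.26 ± 0.10 (SE, adjusted p = 5.64e-08). At 24 h its values were 2965 and 2984 with siNT1 and 3003 and 3013 with siGGGGGC (adjusted p = 0.938). SETDB1, the histone methyltransferase of the complex, had 517 and 521 with siNT1, 539 and 552 with siGGGGGC and 654 and 571 with siGGCAGU. Its changes were 0.071 ± 0.10 (SE, adjusted p = 0.55) and 0.23 ± 0.095 (SE, adjusted p = 0.0503), so neither passed. CBX5, which encodes HP1 alpha, fell with both (log2 fold changes of -1.11 ± 0.16 and -0.64 ± 0.15). It had 4551 and 3017 normalized counts with siNT1 at 48 h, 1701 and 1809 with siGGGGGC and 2095 and 2750.5 with siGGCAGU. With siNT1 at 24 h it had 2320 and 2333, so its control had risen by 48 h (0.70 ± 0.16, SE, adjusted p = 0.0087). The other HP1 genes passed with neither siRNA at 48 h, CBX1 at 0.0072 and 0.049 and CBX3 at 0.26 and -0.21.

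Falls beyond a log2 fold change of 1 with siGGGGGC at 48 h were those of ATF7IP (-1.78), the partner of SETDB1, UHRF1 (-1.38), which guides maintenance methylation of DNA, SUV39H1 (-1.28) and EHMT2 (-1.22), both H3K9 methyltransferases, KDM4A (-1.12), a histone demethylase, and CBX5. With siGGCAGU they included UHRF1 (-2.65), SUV39H1 (-1.51), the maintenance DNA methyltransferase DNMT1 (-1.38), TRIM28, TRIM24 (-1.08), a relative of TRIM28, ATF7IP (-1.02), and MTA2 (-1.02), a subunit of the NuRD complex. The only rise of that size was SENP7, a SUMO protease, with siGGGGGC (1.03 ± 0.11, SE). Whether these changes have a part in those of the zinc finger genes was not tested.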

How the data were processed

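HeyA8 RNA depleted of ribosomal RNA was sequenced as paired ends on a HiSeq4000. The authors aligned trimmed reads to hg38 with TopHat or STAR and counted them per gene with HTSeq, and the deposited raw counts of each of the 10 libraries were used as they are. Versions are not given in the labels, and whether counting used strand is not given in the sources used here. Deposited tables of the authors' own fold changes and p-values were not used.

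Genes that passed edgeR's filterByExpr, a filter on low counts, over the 5 groups (16905 of 58395) were tested. They were fitted in 1 edgeR 4.0.16 quasi-likelihood model (R 4.3.3) with a term per group, TMM scaling and 5 residual degrees of freedom. The mean raw count of 10 defined the members alone, and 7 of the chromosome 19 zinc finger genes it left out were tested. P-values were adjusted by Benjamini-Hochberg over all genes tested. The fit was first tested on simulated counts. DESeq2 1.42.0 was an alternative. The biological coefficient of variation was 0.0837. Symbols, 3′ UTRs and exons came from GENCODE 44, which held 98.9% of the gene identifiers. KRAB boxes were called by a position weight matrix, in place of a planned simple pattern. The best score over the proteins of a gene translated from that annotation was used. Fingers were counted in the longest of these proteins by the usual cysteine and histidine spacing. Genes were named by size of change among those with an adjusted p below 0.05 and a mean of 50 or more normalized counts. Their libraries were not to overlap between the groups, a demand not made in the interaction. Members with the highest levels per kb, or with known targets or partners, were named apart from that rule. So were genes of the TRIM28 list and genes named after their values were seen. The members, the gene lists and the tests were chosen with earlier results of these data known. A gene of the list of TRIM28 partners is counted but not reported by name here.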

Additional observations from a re-analysis of the deposited data

Results flagged for a closer look

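The effect of siGGGGGC against siNT1 differed between 24 h and 48 h by the interaction test of edgeR (adjusted p below 0.05) in 75 members with a higher and 6 with a lower effect at 48 h. Among the genes named, the log2 difference of the effects was 2.12 for ZNF699, 1.94 for ZNF160 and 1.80 for ZNF461, and -1.19 for ZNF552, -1.10 for ZNF587B and -1.03 for ZNF726. ZNF726 lost this call in at least 1 alternative, and the other 5 kept it in all of those run. Groups of 2 libraries allow no test for a single library far from the others.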

How the results depend on the processing

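The rise of the members at 48 h kept its direction with both siRNAs in every alternative run. Values below give members higher and lower, then the median log2 fold change. Under library totals without TMM the 24 h comparison gave 6 higher and a median of -0.077, the 48 h medians were 0.38 (siGGGGGC) and 0.47 (siGGCAGU), the interaction median was 0.45, and siNT1 at 48 h against 24 h gave 23 higher, 0 lower and 0.24. With DESeq2 there were 12 higher and 5 lower at 24 h, 14 lower with siGGGGGC and 13 lower with siGGCAGU at 48 h, 3 lower in the interaction and 5 higher for siNT1. Without a filter on low counts the medians were 0.42 (siGGGGGC, 48 h), 0.54 (siGGCAGU), -0.077 (siGGGGGC against siGGCAGU), 0.38 (interaction, with 12 lower) and 0.087 (siNT1, with 1 lower). A mean count of at least 50 for all genes gave 5 lower for siNT1, as did TMM without RN7SL2 and SNORD3A, and the same minimum for members alone gave an interaction median of 0.47. Fits of the compared groups alone gave 17 lower at 24 h, a median of 0.58 with siGGCAGU and 10 lower in the interaction.

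Beyond a log2 fold change of 1 the counts were 0 and 0 at 24 h, 47 and 5 with siGGGGGC and 50 and 1 with siGGCAGU at 48 h, 9 and 17 between the siRNAs, 31 and 3 in the interaction and 1 and 0 for siNT1. The members whose exons overlap others by under 5%, a choice made after seeing the data, gave 11 and 6 at 24 h, 10 lower with siGGGGGC, 85 and 13 with siGGCAGU, a median of 0.022 between the siRNAs, and 1 lower with a median of 0.58 in the interaction. With the shortest 3′ UTR the median with minus without the word was -0.14 for GCCCCC at 24 h and -0.43 for ACTGCC with siGGCAGU, and with clusters ended by gaps of 500 kb the lowest median with siGGGGGC of a cluster of 10 or more members was -0.39 (ZNF628 to ZNF835). The cause was not tested for these changes, apart from the smaller number of members or the stricter threshold by construction.

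With each library left out in turn, the 24 h comparison gave 4 to 25 higher, 3 to 11 lower and medians of 0.0031 to 0.060. At 48 h siGGGGGC gave 102 to 126 higher, 15 to 23 lower and 0.54 to 0.56, and siGGCAGU 119 to 132, 13 to 21 and 0.56 to 0.65. Between the siRNAs there were 33 to 58 higher, 40 to 56 lower and -0.098 to 0.048, in the interaction 56 to 80, 3 to 10 and 0.45 to 0.52, and for siNT1 1 to 10, 0 to 10 and -0.030 to 0.028.

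The replicate numbers pair no samples (correlations of the duplicates' differences between groups of -0.29 to 0.12). A replicate block gave 14 and 8 at 24 h, 124 and 24 with siGGGGGC, 132 and 20 with siGGCAGU, 52 and 49 between the siRNAs, 73 and 4 in the interaction and 6 and 2 for siNT1. Of 164 calls of 53 named genes, none reversed in any alternative. All 24 named calls at 48 h against siNT1 and the 6 between the siRNAs were kept throughout, against 3 of 12 at 24 h, 5 of 6 in the interaction and 0 of 4 for siNT1. Depth limits the members with the lowest counts.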
